A study of Mus musculus with 16 samples.

Results

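The genes described are Fgf21, which encodes the secreted hormone fibroblast growth factor 21, and the 5 genes for the proteins through which it can signal: the co-receptor gene Klb and the receptor genes Fgfr1, Fgfr2, Fgfr3 and Fgfr4. They are 6 of the 24019 genes in a table of molecule counts from mouse pancreas, and each had 1 row under its official symbol. The set was chosen by measured values: Fgf21 differed between genotypes after cerulein, and its receptors were added by name. The genotype difference under cerulein, and the difference between the cerulein effects that contains it, are therefore given for these genes as a description with no test. For Fgf21 the cerulein effects are also given without a test, since the opposite directions were part of that choice.

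FGF21 is made mainly in liver and, at high level, in the exocrine pancreas, where acinar cells both release it and respond to it. It acts through an FGF receptor tyrosine kinase joined to beta-Klotho, the product of Klb, and FGFR1 in its c splice form is the receptor it uses most. In acinar cells FGF21 is known to promote the secretion of digestive enzymes and to counter stress of the endoplasmic reticulum. Transcription of Fgf21 is known to be raised by the stress-response factor ATF4 and, in fasted liver, by the nuclear receptor PPAR alpha.

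Pancreas was taken from 16 C57BL/6J mice aged 6 to 8 weeks, in 4 groups of 4: wild type (WT) given saline (PBS), WT given cerulein, Adam17ex given PBS and Adam17ex given cerulein. Adam17ex stands for the homozygous Adam17ex/ex genotype. Its allele is hypomorphic, so that less of the membrane protease ADAM17 is made in every cell carrying it, and the mice were age-matched littermates. Cerulein, a cholecystokinin analogue with which acute pancreatitis is induced by overstimulating the acinar cells, was injected into the peritoneum 7 times at hourly intervals at 50 µg per kg, PBS in a volume of 50 µl, and mice were culled 1 h after the last injection. By label, 2 of 4 mice were male in either Adam17ex group, 1 among the WT mice given cerulein and 0 among those given PBS. Where p-values are given they measure the spread between these mice.

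Libraries held 455547 to 1476159 unique molecular identifiers (UMIs, 1 per captured RNA molecule), and Adam17ex PBS replicates 1 to 3, at 455547 to 492878, were the 3 shallowest. Adam17 summed to 41 UMIs over WT PBS and 68 over WT cerulein, against 10 and 15 in the Adam17ex groups. The genotype difference in Adam17 was -2.05 ± 0.40 (log2 fold change ± SE) under cerulein, with an adjusted p of 0.00138, and -1.21 ± 0.49 under PBS, with an adjusted p of 0.21. The acinar markers Cpa1, Cela1 and Pnlip were abundant in every library, and 15 acinar genes took 19.8% to 31.2% of all UMIs, which fits the labelled tissue. Levels below are CPM (counts scaled to a common library total) adjusted by TMM factors (scaled CPM, mean ± SD, n = 4), tests are edgeR's quasi-likelihood tests, and a gene was called at a Benjamini-Hochberg adjusted p under 0.05 over the 8236 genes with enough counts. Of the 6 genes, Fgf21, Klb and Fgfr1 passed that filter. Klb did so narrowly, through 1 WT PBS and 3 Adam17ex PBS libraries, the groups in which it was highest.

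Fgf21 had the widest range of group means of these genes, from 5.79 to 231 scaled CPM. It lies on chromosome 7 at 45613886 to 45615490 of GRCm38, on the minus strand, with 1 annotated transcript of 3 exons and no overlapping gene, so its counts are not shared with a neighbour. The 250 bases before its start site are shown because several of the stress genes measured beside it carry the same element. They lie at chr7:45615491-45615740, RefSeq GRCm38.p6, written along the gene's own strand. The capitals mark a match to the composite element bound by ATF4 with a C/EBP partner (TGATGNAA, searched on both strands), here on the reverse strand at 139 to 132 bases before the start.

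Fgf21 promoter: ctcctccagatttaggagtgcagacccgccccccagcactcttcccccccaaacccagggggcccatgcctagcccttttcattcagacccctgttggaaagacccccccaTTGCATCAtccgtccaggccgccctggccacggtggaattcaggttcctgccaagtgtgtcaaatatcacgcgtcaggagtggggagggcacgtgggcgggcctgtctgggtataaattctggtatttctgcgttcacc

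The window also holds an E-box (CACGTG) at 50 to 45 bases and a TATA box (TATAAA) at 28 to 23 bases before the start. Among all 32851 RefSeq windows of the same kind, each 250 bases before to 50 after a start, 3.97% hold the composite element, 7.15% that E-box and 13.6% that TATA box. A match is a description of the letters and not evidence of binding.

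In WT mice given PBS, Fgf21 stood at 18.8, 32.8, 36.7 and 38.0 scaled CPM, from 16 to 44 UMIs per library. In WT mice given cerulein it stood at 7.24, 2.22, 2.15 and 11.6, from 2 to 14 UMIs. All 4 cerulein libraries lay below all 4 PBS libraries. The means were 31.6 ± 8.80 and 5.79 ± 4.53 scaled CPM, a ratio of 5.45, and the fitted difference was -2.29 ± 0.53. Among all genes tested, 20.2% were likewise lower without overlap in WT after cerulein, so a fall of this kind was common there.

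In Adam17ex mice the order was the opposite. Fgf21 stood at 28.6, 105.9, 30.1 and 28.3 scaled CPM in the PBS group, from 11 to 41 UMIs, and at 124, 164, 227 and 407 in the cerulein group, from 118 to 597 UMIs. The groups did not overlap, although the highest PBS library, replicate 2, came close to the lowest cerulein library. The means were 48.2 ± 38.4 and 231 ± 125 scaled CPM, a ratio of 4.78, and the fitted difference was 2.39 ± 0.39. Among all genes tested, 13.8% were higher without overlap in Adam17ex after cerulein.

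The combination of the 2 directions was rarer: 35 of 8236 genes, or 0.425%, were lower without overlap in WT and higher without overlap in Adam17ex, and Fgf21 is 1 of them. Nothing is read from that share, since Fgf21 was chosen for this pattern. Ordered by mean level the groups ran WT cerulein, WT PBS, Adam17ex PBS, Adam17ex cerulein. Only the middle neighbours, the PBS groups, overlapped. The plot of scaled CPM by library shows this order for Fgf21 beside the other genes, each on its own vertical scale. In WT the ratio of the PBS mean to the cerulein mean was larger for Klb, at 8.50, than for Fgf21, at 5.45.

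**Figure D1:**
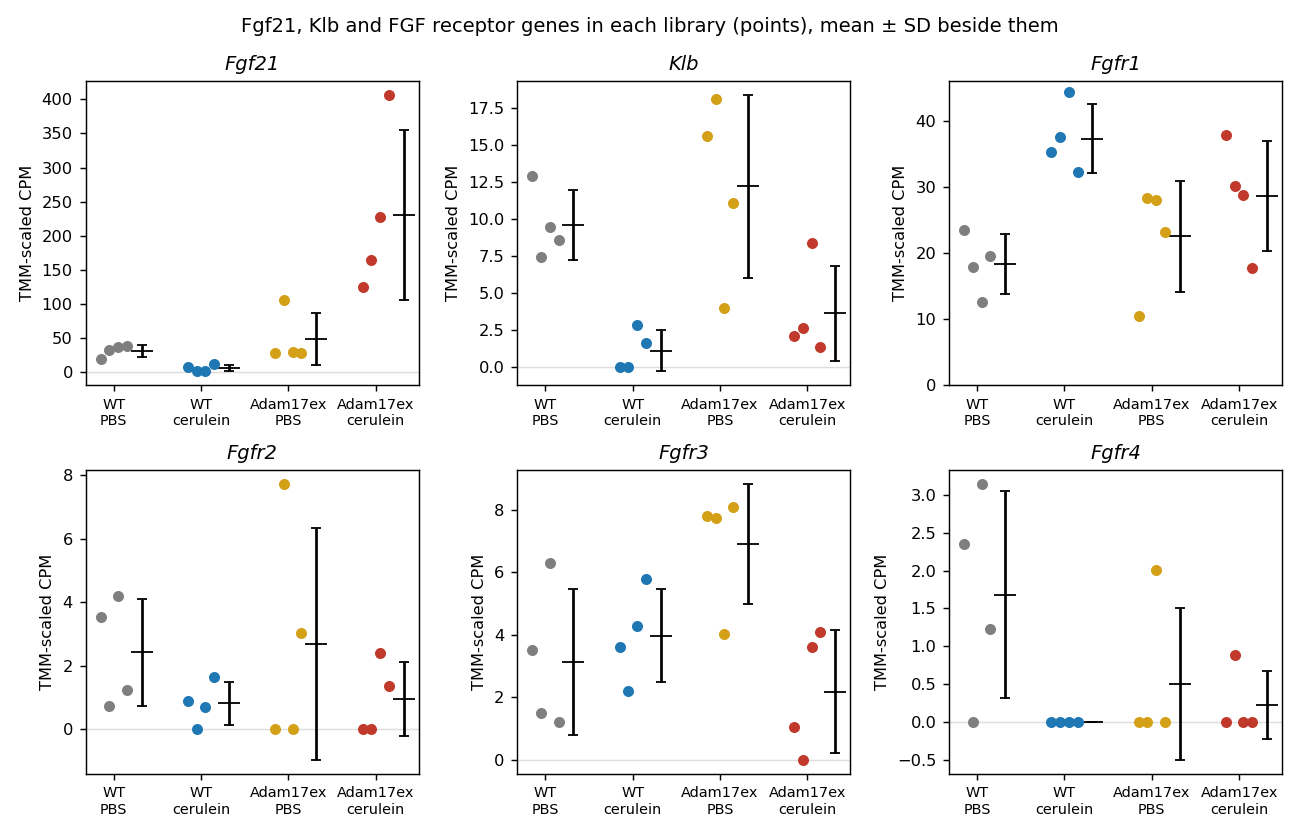
Scaled CPM (vertical axis, linear) of each gene in each of the 16 libraries (points, 4 per group on the horizontal axis), with the mean and SD beside them. Fgf21 reached 407 in an Adam17ex cerulein library and stayed between 2.15 and 11.6 in WT cerulein, Klb was low in both cerulein groups, and Fgfr1 was highest in WT cerulein.

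Under PBS the genotypes could be compared with a test, since that contrast did not choose the gene. The difference in Fgf21 was 0.72 ± 0.46 with an adjusted p of 0.455. By edgeR 0 of the 3 members with enough counts were called, against 1.36% of all genes. DESeq2, which gave an adjusted p to Fgf21 only, also called 0. At an unadjusted p under 0.05 the count was 0 as well, and no share of all genes is given at that threshold. The Fgf21 difference rested on Adam17ex PBS replicate 2. Without that library it was 0.01, and without the 3 shallow libraries, which include replicate 2, it was -0.17.

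Under cerulein the genotypes differed in Fgf21 by 5.40 ± 0.47 on the log2 scale, a ratio of means of 39.8, which ranked 2 of 8236 genes from the top. Without Adam17ex cerulein replicate 4, the highest library, it was 4.85. The difference between the 2 cerulein effects was 4.67 ± 0.65, ranked 3 of 8236. In these contrasts 9.70% and 6.02% of all genes were called. At an equal depth of 455547 UMIs per library, Fgf21 had 8, 9, 16 and 14 UMIs in WT PBS, 3, 2, 1 and 5 in WT cerulein, 10, 39, 15 and 13 for Adam17ex with PBS, and 47, 65, 104 and 180 with cerulein. The groups thus kept their order when depth was made the same. In the Adam17ex cerulein group the females stood at 124 and 407 scaled CPM and the males at 164 and 227, so the sexes were interleaved.

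Fgf21 moved in WT in the direction of the acinar genes. The 15 acinar markers took 27.9% to 31.2% of UMIs in WT PBS, 19.8% to 23.6% in WT cerulein, 22.9% to 29.3% in Adam17ex PBS and 25.1% to 27.0% in Adam17ex cerulein. Of these 15, 8 fell in WT with cerulein, where 21.3% of all genes tested were called lower, and 1 fell in Adam17ex, against 16.2%. In the genotype comparison under cerulein 4 were higher in Adam17ex, against 9.70% of all genes called in either direction. The part of the acinar share in the Fgf21 differences was not tested. In bulk tissue fewer cells of a type and less RNA per cell cannot be told apart.

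Liver RNA also carries Fgf21, so hepatocyte markers are given beside it. Alb, the defining liver gene, went from 30 UMIs under PBS to 4 under cerulein in WT mice and from 9 to 27 in Adam17ex mice, so its counts, not scaled for the shallower Adam17ex PBS libraries, were lower after cerulein in WT and higher in Adam17ex, as those of Fgf21 were. Fgf21 had 126 UMIs in WT PBS and 1089 in Adam17ex cerulein. Apoa1 had 1 and 5 in WT mice and 6 and 2 in Adam17ex mice. The 12 listed hepatocyte genes, of which 10 were in the table, summed to 211 to 414 scaled CPM in WT PBS, 28.0 to 85.3 in WT cerulein, 167 to 315 in Adam17ex PBS and 45.4 to 197 in Adam17ex cerulein. Only Ttr and Trf, for the carriers transthyretin and transferrin, had enough counts for the test. In WT they fell, by -2.21 ± 0.39 and -2.35 ± 0.76. In Adam17ex they fell as well, by -1.21 ± 0.39 and -2.04 ± 0.62. Alb gave a small part of the list's counts: 4 to 12 UMIs per WT PBS library, where the list held 201 to 352. Ttr and Trf are therefore not read as standing for Alb, whose counts were higher in Adam17ex after cerulein. The Adam17ex value of Ttr was 0.48 without Adam17ex PBS replicates 1 to 3 (adjusted p 0.632). The part of liver RNA in the Fgf21 differences was not tested.

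Klb encodes the co-receptor that gives FGF21 its target cells, and it fell with cerulein in both genotypes. The gene lies on chromosome 5 at 65348314 to 65384007, with 3 annotated transcripts and no overlapping gene. It was sparse, with 83 UMIs in all. In WT PBS the libraries held 11, 10, 9 and 7 UMIs (9.60 ± 2.37 scaled CPM) and in WT cerulein 0, 0, 4 and 2 (1.13 ± 1.40). The groups did not overlap, and the difference was -2.77 ± 0.67 with an adjusted p of 0.00202. Among the 3 members that passed the filter, Klb was called lower and Fgfr1 higher in this contrast, against 41.1% of all genes called, 21.3% lower and 19.8% higher.

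In Adam17ex mice, Klb had 6, 7, 2 and 11 UMIs under PBS (12.2 ± 6.17 scaled CPM) and 2, 3, 7 and 2 under cerulein (3.64 ± 3.22). Here the groups overlapped, because replicate 3 was the lowest of the PBS group at 4.02 and the highest of the cerulein group at 8.40. The difference was -1.79 ± 0.61 with an adjusted p of 0.0285, and Klb was the only member called of the 2 tested there. Of all genes 30.3% were called, 16.2% lower. This call was lost on leaving out any of 6 libraries, Adam17ex PBS replicates 1, 2 or 4 or Adam17ex cerulein replicates 1, 2 or 4, with estimates of -2.51 to -1.31 and adjusted p of 0.00751 to 0.157 over all 16 left-out libraries. Without the 3 shallow libraries it was -2.04 ± 0.95, with an adjusted p of 0.162.

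Since Klb passed the filter through the groups in which it was high, the fit on all 24019 genes with no filter is given beside both calls. It gave -2.72 ± 0.60 in WT (adjusted p 8.55e-05) and -1.63 ± 0.54 in Adam17ex (adjusted p 0.0260). That fit rests on the same 83 UMIs and is no independent support for the calls. For Fgfr4, also sparse, it and the exact test differed, as given below. Genotypes did not differ detectably in Klb under PBS, at 0.29 ± 0.57 with an adjusted p of 0.861. Under cerulein the difference was 1.26 ± 0.80, and the difference between the cerulein effects was 0.97 ± 0.92. Single libraries moved these: without Adam17ex cerulein replicate 3 they were 0.65 and 0.16, and without WT cerulein replicate 3 they were 2.14 and 1.91.

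Fat tissue expresses Klb strongly, and adipocyte markers moved with it. All 8 tested adipocyte genes of 11 listed fell in WT with cerulein and 7 of 8 fell in Adam17ex, against 21.3% and 16.2% of all genes called lower. Their summed level was 182 to 901 scaled CPM in WT PBS, 60.9 to 91.9 in WT cerulein, 276 to 1728 in Adam17ex PBS and 113 to 675 in Adam17ex cerulein. Of the defining genes, Adipoq had 68, 1, 143 and 22 UMIs in these groups, Plin1 had 11, 0, 34 and 4, and Cfd had 268, 15, 297 and 229. Of the 229 Cfd UMIs in Adam17ex cerulein, 199 came from 1 library. These counts are not scaled for the shallower Adam17ex PBS libraries. Adam17ex cerulein replicate 3 was highest in its group for both adipocyte markers and Klb, whereas Adam17ex PBS replicate 3 was highest for adipocyte markers and lowest for Klb.

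Markers of some other cells fell beside Klb too. Liver expresses Klb as well, and both tested hepatocyte genes, Ttr and Trf, were called lower in either genotype, with the values and the exception given above. All 3 tested B and plasma cell genes of 8 listed fell in both genotypes. These were Ighm (-5.07 ± 1.06 in WT and -3.29 ± 0.94 in Adam17ex), Igkc (-4.31 ± 1.05 and -2.93 ± 0.99) and Jchain (-4.44 ± 1.14 and -3.55 ± 1.05), which encode antibody chains and their joining chain. Their list summed to 25.2 to 1003 scaled CPM in WT PBS, 8.60 to 44.3 in WT cerulein, 28.6 to 749 in Adam17ex PBS and 9.49 to 173 in Adam17ex cerulein. Without the 3 shallow libraries Ighm was no longer called in Adam17ex, at -4.07 (adjusted p 0.0656). Of the islet genes 1 of 12 fell in WT and 10 in Adam17ex, and of the fibroblast genes 1 of 7 and 5. Of the macrophage genes 1 of 7 fell in WT, where 1 also rose, and 4 fell in Adam17ex. Of the endothelial genes 1 of 6 fell in each genotype. Over all genes 21.3% were called lower in WT and 16.2% in Adam17ex, so in WT these last lists did not exceed the share. The Adam17ex counts rest on a PBS group in which replicates 1 to 3 are the shallow libraries. The parts of fat and of these other cells in the Klb differences were not tested.

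**Figure D2:**
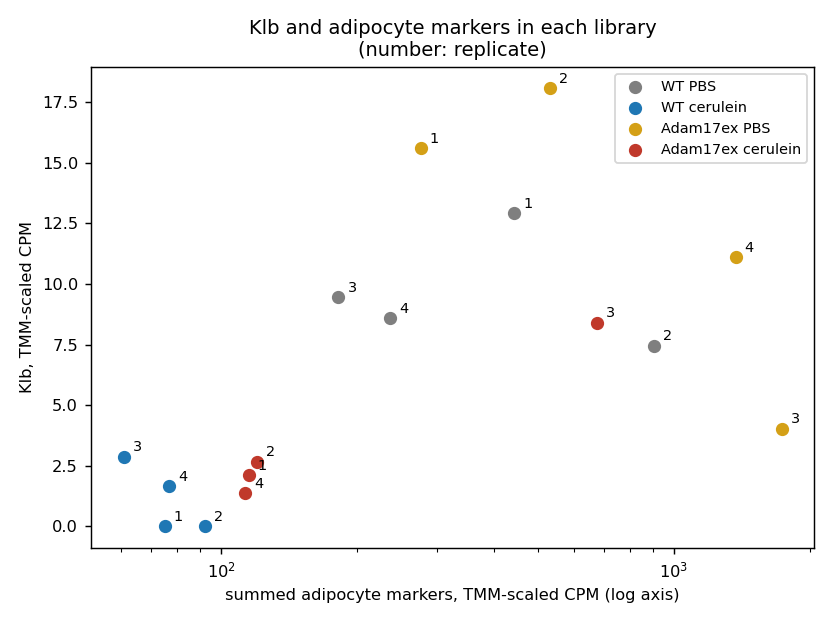
Klb (vertical axis, scaled CPM) against the summed adipocyte markers (horizontal axis, scaled CPM, log axis) in 16 libraries, numbered by replicate and coloured by group. The 4 WT cerulein libraries lie at the lower left, at 60.9 to 91.9 for the markers and 0 to 2.87 for Klb, and Adam17ex PBS replicate 3 has the highest marker sum, 1728, with a Klb of 4.02.

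Fgfr1, the receptor most used by FGF21, rose with cerulein in WT. It lies on chromosome 8 at 25513654 to 25575718 with 19 annotated transcripts, whose splice forms these counts do not separate, and the antisense gene Gm16159 overlaps it. WT PBS libraries stood at 23.5, 17.9, 12.6 and 19.6 scaled CPM, from 12 to 24 UMIs, and WT cerulein libraries at 35.3, 37.7, 44.4 and 32.2, from 34 to 62 UMIs. The groups did not overlap, as was the case for 19.2% of all genes in the upward direction. The means of 18.4 ± 4.53 and 37.4 ± 5.18 differed by 1.05 ± 0.27 with an adjusted p of 0.00303.

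In Adam17ex mice Fgfr1 was 10.4, 28.4, 28.1 and 23.2 scaled CPM under PBS and 38.0, 30.2, 28.8 and 17.7 under cerulein. These groups overlapped, and their difference of 0.30 ± 0.29 did not pass (adjusted p 0.464). The genotype difference under PBS was 0.35 ± 0.33 (adjusted p 0.639). Under cerulein it was -0.40 ± 0.25, and the difference between the cerulein effects was -0.75 ± 0.40. Neither of these 2 values was tested, so whether the cerulein effects differ is not given.

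Duct markers moved with Fgfr1 in WT. Of 6 tested duct genes of 10 listed, 4 rose and 1 fell in WT with cerulein, against 41.1% of all genes called, and 2 rose in Adam17ex, against 30.3%. Their summed level was 343 to 395 scaled CPM in WT PBS, 985 to 1246 in WT cerulein, 368 to 447 in Adam17ex PBS and 446 to 558 in Adam17ex cerulein. The defining duct gene Krt19 had 202, 2520, 137 and 651 UMIs. Cftr, also a defining gene, had 5, 23, 3 and 23. The part of the duct signal in the Fgfr1 difference was not tested.

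The other receptors were close to the limit of detection, and levels of different genes are not compared. Fgfr3, which can also partner beta-Klotho, had 57 UMIs in all. Its libraries held 3, 2, 6 and 1 UMIs in WT PBS and 4, 2, 6 and 7 in WT cerulein. In Adam17ex they held 3, 3, 2 and 8 under PBS and 1, 0, 3 and 6 under cerulein. In Adam17ex the mean was 6.91 ± 1.93 scaled CPM under PBS and 2.19 ± 1.97 under cerulein, with a two-sided exact permutation p of 0.0571, where 4 against 4 libraries allow no p under 0.0286. WT PBS stood at 3.13 ± 2.35, and its difference from Adam17ex PBS also gave an exact p of 0.0571. In WT cerulein the mean was 3.98 ± 1.48, with an exact p of 0.486 against WT PBS. The gene lies on chromosome 5 at 33721674 to 33737068 and is overlapped by G630022F23Rik.

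Fgfr2, best known as the receptor of epithelial cells for ligands from the surrounding mesenchyme, had 23 UMIs, of which WT mice held 9 under PBS and 4 under cerulein, and Adam17ex mice 6 and 4. The means were 2.42 ± 1.70, 0.818 ± 0.679, 2.69 ± 3.66 and 0.941 ± 1.17 scaled CPM. Exact permutation p-values were 0.171 for the WT cerulein comparison, 0.543 for that in Adam17ex and 0.943 between genotypes given PBS. Its annotated span, chromosome 7 at 130162451 to 133123350, overlaps 69 other genes, so these few counts are uncertain.

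Fgfr4, the main receptor for bile acid control by FGF15 in liver, had 8 UMIs in all, 6 of them in WT PBS (2, 0, 3 and 1) and 1 in each Adam17ex group. It lies on chromosome 13 at 55152640 to 55168759. WT cerulein had 0 UMIs, which allows up to 0.731 CPM over the pooled group at 3 counts, while WT PBS pooled to 1.45. Both values are CPM by library total, without TMM factors. The exact permutation p for cerulein in WT was 0.143. A fit on all 24019 genes without the filter called it, at an adjusted p of 0.0439. The exact p reached 0.0286 only without WT PBS replicate 2, the library at 0. The exact p was 1 in the Adam17ex comparison and 0.257 between the PBS groups. None of the exact tests of Fgfr2, Fgfr3 and Fgfr4 reached 0.05 with all libraries and TMM scaling.

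The other ligands of the family were almost undetected. Of 21 further FGF genes, 11 were in the table and 0 had enough counts for the test. Fgf1, which can bind all FGF receptors, had 69 UMIs, of which WT mice held 6 under PBS and 12 under cerulein, and Adam17ex mice 31 and 20. Fgf7, a ligand of epithelial FGFR2, had 25 UMIs, and Fgf2, a ligand kept in the matrix, had 12. Fgf21 alone had 1337.

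Genes for proteins that bind FGFs or assist their receptors came next. Of 9 tested genes of 17 listed, 2 rose and 1 fell in WT, and 2 rose and 2 fell in Adam17ex. Of all genes 41.1% and 30.3% were called, so the count in WT was no higher than that share. The list had median differences of 0.46 and -0.23 against -0.04 and -0.03 over all genes. The heparan sulfate carrier Sdc1 (syndecan-1) rose by 3.58 ± 0.18 in WT and by 3.16 ± 0.22 in Adam17ex, and Sdc4 rose by 1.25 ± 0.26 and 1.14 ± 0.28. Gpc4, a glypican, fell in WT (-1.18 ± 0.41). Flrt2, which can bind FGF receptors, fell in Adam17ex (-1.57 ± 0.58), as did Sdc2 (-1.31 ± 0.43). Under cerulein 3 of the 9, against 9.70% of all genes called, were lower in Adam17ex than in WT: Flrt2 by -2.16 ± 0.49, Gpc1 by -1.21 ± 0.38 and Sdc1 by -0.64 ± 0.15. Without the 3 shallow libraries, which leaves 1 Adam17ex PBS library whose spread is assumed to be like that of the others, the Adam17ex calls were lost for Sdc4 (0.79), Sdc2 (-1.05) and Flrt2 (-1.83). ADAM17 is known to cut syndecans, which bears on protein and not on these RNA levels.

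Among 15 tested genes of 19 that carry the receptor signal inside the cell, 5 rose and 1 fell in WT, and 3 rose and 2 fell in Adam17ex. These counts are close to the shares of all genes called, 41.1% and 30.3%, and are no result about the list. The GTPase gene Nras rose in both genotypes, by 1.47 ± 0.24 in WT and by 1.39 ± 0.28 in Adam17ex. The adaptor Grb2 (1.20 ± 0.23) and the ubiquitin ligase Cbl (1.28 ± 0.28) rose in WT. The kinase Mapk3 fell in Adam17ex (-1.38 ± 0.40), and the exchange factor Sos2 fell in both (-1.06 ± 0.31 and -1.33 ± 0.31). Without the 3 shallow libraries the Adam17ex calls for Nras (0.95) and Mapk3 (-0.91) were lost. Between genotypes under cerulein edgeR and DESeq2 called 0 of the 15. At an unadjusted p under 0.05 there were 5, of which 2 were higher and 3 lower. The share of all genes at that threshold is not given, so nothing is read from the 5.

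Genes that respond to receptor and ERK signalling, of which 6 of 16 were tested, had 3 that rose and 1 that fell in WT, and 2 that rose and 1 that fell in Adam17ex, beside 41.1% and 30.3% of all genes called. Egr1, an immediate early transcription factor, rose by 3.18 ± 0.39 and 3.69 ± 0.34, and the ERK phosphatase Dusp5 by 3.11 ± 0.49 and 2.83 ± 0.52. Fos rose in WT (2.13 ± 0.75) and stood at 1.33 ± 0.51 in Adam17ex, which did not pass. Egr1 and Fos were higher in Adam17ex under cerulein, by 1.76 ± 0.25 and 1.88 ± 0.46. Ccnd1, a cell cycle gene, fell in both (-0.63 ± 0.23 and -1.16 ± 0.23). The call for Ccnd1 in Adam17ex was lost without the shallow libraries (-0.92). These genes answer to many receptors besides those for FGFs.

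Upstream of Fgf21, the kinases and transcription factors of the stress response were all measured, 13 of 13. In WT 6 rose and 1 fell with cerulein, and in Adam17ex 6 rose and 1 fell, beside 41.1% and 30.3% of all genes called. Under cerulein 5 were higher in Adam17ex than in WT, beside 9.70% of all genes called, with a median difference of 0.31 against 0.01 over all genes. Atf4 itself, the factor that binds the composite element, averaged 216 ± 57.1, 245 ± 14.9, 254 ± 60.8 and 546 ± 86.4 scaled CPM in WT PBS, WT cerulein, Adam17ex PBS and Adam17ex cerulein. Its cerulein difference was 0.15 ± 0.20 in WT (adjusted p 0.586) and 1.11 ± 0.20 in Adam17ex (adjusted p 0.00028), and these differed by 0.96 ± 0.29 (adjusted p 0.0468). That difference was 1.24 without the shallow libraries, with an adjusted p of 0.102.

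The gene for PERK, Eif2ak3, a kinase of the endoplasmic reticulum that raises ATF4 translation, rose by 0.60 ± 0.19 in WT and by 2.03 ± 0.20 in Adam17ex, and the interaction of 1.43 ± 0.27 was called (adjusted p 0.0025). It was 0.97 without the shallow libraries (adjusted p 0.143). Ern1, which encodes the stress sensor IRE1 alpha, was higher in Adam17ex under cerulein by 1.36 ± 0.27. Cebpb, a C/EBP partner of ATF4, rose in both genotypes (1.18 ± 0.25 and 1.54 ± 0.24) and was higher in Adam17ex under cerulein by 1.07 ± 0.21. Atf6, the sensor of the other branch, fell in WT (-1.18 ± 0.22), stood at -0.17 ± 0.22 in Adam17ex, and was higher there under cerulein by 0.91 ± 0.22. Hsf1, the heat shock factor, rose in WT (1.65 ± 0.37) and stood at 0.31 ± 0.39 in Adam17ex, with an interaction of -1.35 ± 0.55 that did not pass (adjusted p 0.151).

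Of the other known ATF4 targets, 18 of 19 listed were tested, and 13 rose and 1 fell with cerulein in Adam17ex (median 1.18, against -0.03 over all genes), and 5 rose and 3 fell in WT (median 0.04, against -0.04). Of all genes 30.3% were called in Adam17ex and 41.1% in WT. Under cerulein 9 were higher in Adam17ex, with a median of 0.92 for the list, and the interaction was called, and positive, for 5, beside 9.70% and 6.02% of all genes called. On leaving out the shallow libraries 19 were tested, and 10 rose and 1 fell in Adam17ex, 9 were again higher under cerulein and 2 had a called interaction. Under PBS 1 was called: Psat1, a serine synthesis gene, was lower in Adam17ex (-1.39 ± 0.23, adjusted p 0.00478). Without the shallow libraries its difference was -1.38, with an adjusted p of 0.16.

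The list divided into genes that rose in WT too and genes that did not. Trib3, a pseudokinase that feeds back on ATF4, averaged 2.53 ± 1.03, 9.45 ± 4.44, 7.92 ± 2.69 and 46.7 ± 6.46 scaled CPM in the order of groups above, and rose by 1.72 ± 0.44 in WT and by 2.59 ± 0.33 in Adam17ex. Atf3, an ATF4-induced repressor, rose by 2.71 ± 0.46 and 3.37 ± 0.45, and the stress gene Nupr1 by 2.40 ± 0.21 and 1.95 ± 0.21. The amino acid transporter subunit Slc3a2 rose by 0.96 ± 0.17 and 1.57 ± 0.17. None of these 4 had a called interaction.

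Several enzymes of amino acid and folate metabolism on the list did not rise in WT. Cth, which makes cysteine, stood at 41.8 ± 12.8, 11.6 ± 3.15, 32.7 ± 12.8 and 47.5 ± 9.29 scaled CPM. It fell in WT (-1.88 ± 0.29) and stood at 0.60 ± 0.27 in Adam17ex (adjusted p 0.0971), with an interaction of 2.48 ± 0.40 (adjusted p 0.000546). Aldh1l2, a mitochondrial folate enzyme, fell in both, by -3.55 ± 0.25 and -1.15 ± 0.22, with an interaction of 2.40 ± 0.34. Sesn2, a nutrient sensor, stood at 0.00 ± 0.33 in WT and rose by 2.38 ± 0.45 in Adam17ex, with an interaction of 2.38 ± 0.67. Psat1 had an interaction of 1.20 ± 0.29. Without the shallow libraries the interactions of Sesn2, at 2.12 (adjusted p 0.184), and Psat1, at 1.22 (adjusted p 0.148), were of like size but no longer called, while those of Cth (2.82) and Aldh1l2 (2.36) were. The lipoprotein receptor Vldlr fell in WT (-1.68 ± 0.29) and stood at -0.39 ± 0.27 in Adam17ex. Ppp1r15a, whose product reverses the stress block on translation, rose in Adam17ex (1.68 ± 0.40) and was higher there under cerulein by 1.72 ± 0.34.

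**Figure D3:**
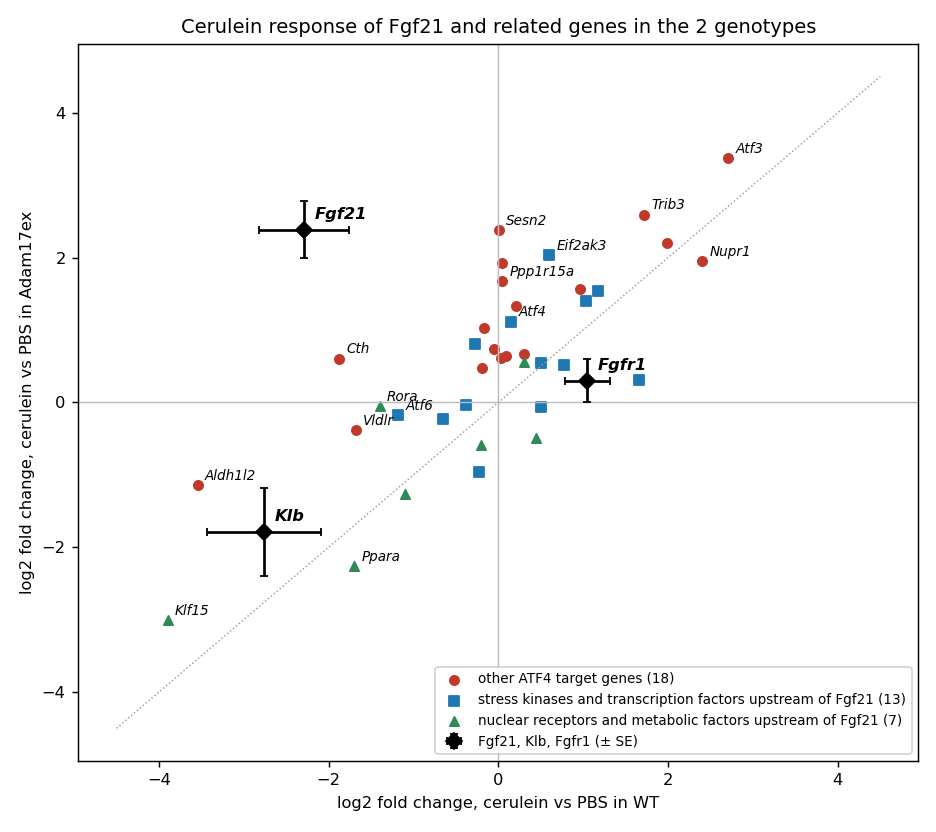
Cerulein difference (log2 fold change) in WT on the horizontal axis and in Adam17ex on the vertical axis for 18 ATF4 targets, 13 stress regulators, 7 metabolic regulators, and Fgf21, Klb and Fgfr1 with SE bars. The dotted line marks equal change. Fgf21, at -2.29 and 2.39, lies in the upper left, where Cth (-1.88 and 0.60) is the nearest labelled gene.

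The composite element seen before Fgf21 was present in 7 of the 16 ATF4 target genes that had a window (43.8%; 7 of their 19 windows, 36.8%), against 3.97% of all windows. The list was made of known targets, so a high share is built into it. The matches are shown with 11 bases on each side, along each gene's strand, with the element in capitals.

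Fgf21: agacccccccaTTGCATCAtccgtccaggc
Atf3: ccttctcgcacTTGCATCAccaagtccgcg
Nupr1: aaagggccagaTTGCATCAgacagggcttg
Chac1: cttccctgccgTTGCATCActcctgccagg
Vldlr: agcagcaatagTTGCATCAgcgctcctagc
Trib3: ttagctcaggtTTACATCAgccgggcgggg
Asns: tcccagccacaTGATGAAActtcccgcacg
Slc7a11: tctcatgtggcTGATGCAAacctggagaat
Slc7a11, second match: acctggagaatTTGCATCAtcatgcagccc

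The 8-base matches lie at chr7:45615622-45615629 (Fgf21), chr1:191183436-191183443 (Atf3), chr7:126625573-126625580 (Nupr1), chr2:119351049-119351056 (Chac1), chr19:27216820-27216827 (Vldlr), chr2:152344039-152344046 (Trib3) and chr6:7693225-7693232 (Asns). Those of Slc7a11 lie at chr3:50443672-50443679 and chr3:50443653-50443660. All precede the start except that of Trib3, which lies 15 to 22 bases after it. Genes with the element did not share 1 pattern: in WT with cerulein Vldlr fell and Atf3, Trib3 and Nupr1 rose. Over the 16 libraries the Pearson r of log2 CPM with Fgf21 was highest for Slc7a11 (0.78) and Chac1 (0.73). It was 0.60 for Vldlr, 0.57 for Trib3, 0.31 for Atf3, -0.11 for Nupr1 and -0.12 for Asns. These coefficients are a description only. The part of ATF4 in the Fgf21 differences was not tested. The windows of Klb, Fgfr2, Fgfr3 and Fgfr4 hold 0 matches.

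Among nuclear receptors and metabolic factors that act on Fgf21 in fasting, of which 7 of 14 were tested, 4 fell with cerulein in WT and 3 in Adam17ex, and 0 rose in either. Of all genes 21.3% and 16.2% were called lower. Klf15, a fasting factor induced by glucocorticoid, fell by -3.90 ± 0.37 and -3.01 ± 0.35, the glucocorticoid receptor Nr3c1 by -1.10 ± 0.24 and -1.27 ± 0.24, and Ppara, the gene for PPAR alpha, by -1.70 ± 0.51 and -2.26 ± 0.68. The part of PPAR alpha and of the other factors on this list in the Fgf21 differences was not tested. Rora, a receptor that can activate Fgf21, fell in WT (-1.40 ± 0.23) and stood at -0.05 ± 0.22 in Adam17ex, with an interaction of 1.34 ± 0.31 (adjusted p 0.0123). Without the shallow libraries that of Rora was 0.90 (adjusted p 0.209), and Ppara in Adam17ex was -1.87 (adjusted p 0.242).

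Of 14 PPAR alpha target genes 6 were tested, and 2 rose and 1 fell in WT while 2 fell in Adam17ex, near the 41.1% and 30.3% of all genes called. Acadm, an enzyme of mitochondrial fatty acid oxidation, fell in Adam17ex (-1.23 ± 0.35). The lipid droplet gene Plin2 rose in WT (1.96 ± 0.41) and stood at -0.33 ± 0.51 in Adam17ex. Its interaction was -2.29 ± 0.67 (adjusted p 0.0433). Acadl rose in WT (0.85 ± 0.22) and had an interaction of -1.29 ± 0.32 (adjusted p 0.0197). Without the shallow libraries these interactions were -1.92 and -0.93, with adjusted p of 0.312 and 0.275.

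Over the 16 libraries the genes most like Fgf21, by Pearson r of log2 CPM, were Slc38a2 (r = 0.89), Dusp8 (0.89), Rab18 (0.88), Atp6ap2 (0.86), Ppp3ca (0.86), Yes1 (0.86), Ern1 (0.86), Aff4 (0.83), Sema3c (0.82) and Tceal9 (0.80). The libraries share 4 group means, so the coefficients are a description only, and within groups they were smaller, for example 0.61 for Slc38a2. Slc38a2, an amino acid transporter gene, averaged 143, 66.2, 136 and 185 scaled CPM in WT PBS, WT cerulein, Adam17ex PBS and Adam17ex cerulein. Dusp8, a phosphatase of stress kinases, averaged 12.5, 5.29, 13.6 and 39.2. The least like were Gne (-0.89), Hdgf (-0.85) and Ralgapa2 (-0.84). Of the 10 most like, 5 were kept with Spearman's rho and 6 without the 3 shallow libraries. A coefficient over 0.5 was found for 38.9% of the ATF4 targets, 40% of the acinar markers and 33.3% of the duct markers. The share was 23.1% for the stress regulators, 14.3% for the nuclear receptors and metabolic factors, and 0% to 8.33% for the remaining lists. Over all genes it was 4.87%. These shares are no test, since Fgf21 was chosen for its pattern over the groups.

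**Figure D4:**
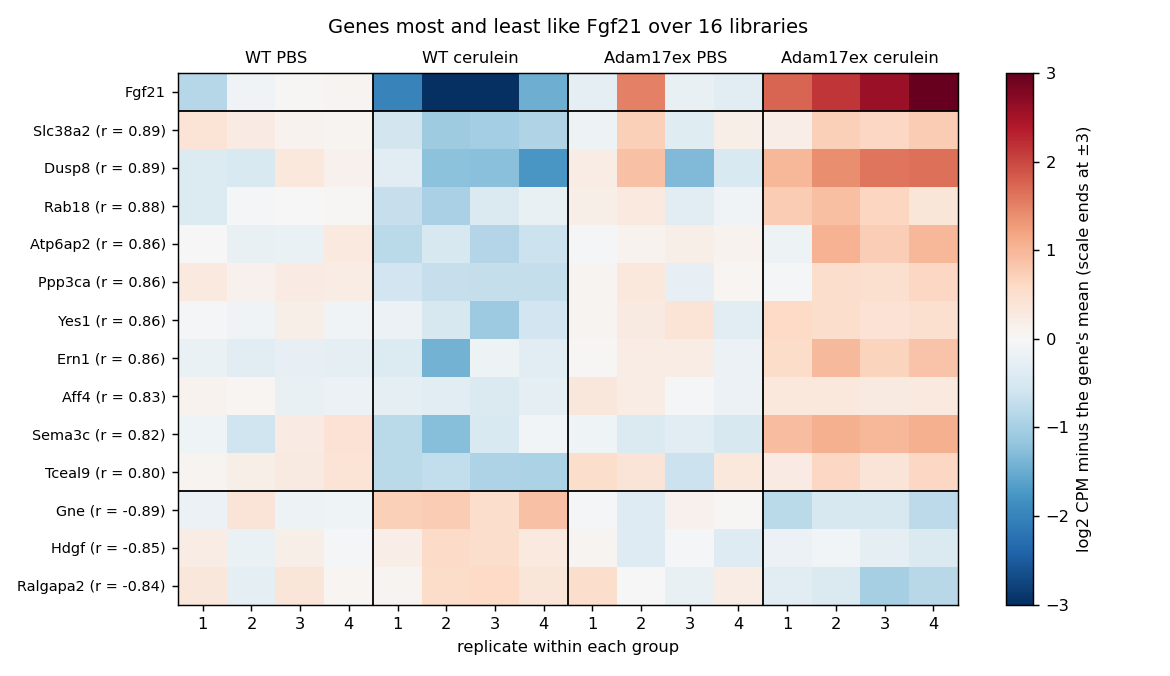
Log2 CPM minus the gene's mean over 16 libraries (colour, scale ends at ±3) for Fgf21, the 10 genes most like it and the 3 least like it, with libraries by group and replicate on the horizontal axis. The range of Fgf21 is wider than that of the other genes, with the lowest values in WT cerulein replicates 2 and 3 and the highest in Adam17ex cerulein replicate 4.

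For Klb the most alike were Tob1 (0.93), Kat6b (0.92), Snora57 (0.91), Rint1 (0.91) and Ubr3 (0.91), and the least alike Tac1 (-0.95). Of these 5, 2 were kept with Spearman's rho and 1 without the shallow libraries. For Fgfr1 they were Blmh (0.91), Unc45a, Nfkbia, Tnip1 and Tuba1b, with 1 of 5 kept under each of those settings, and the least alike was Kyat3 (-0.88). Between the members themselves r was 0.27 for Fgf21 with Klb, -0.29 for Fgf21 with Fgfr1 and -0.58 for Klb with Fgfr1.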

How the data were processed

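RNA of pancreas tissue was sequenced as libraries primed on the poly(A) tail from 30 ng of RNA, with UMIs of 10 bp and reads of 101 bp, per the labels' protocols. The values deposited by the authors are whole-number UMI counts per gene with no normalization. Builds named by the submitters' processing notes are mm10 and GRCm38, and tools are limma 3.50.0, edgeR 3.36.0 and R 4.1.2. How reads were aligned, counted and collapsed by UMI is not given in the sources. Counts report mostly 3' ends, so splice forms are not separated.

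Counts were fitted with edgeR 4.0.16 in R 4.3.3 (filterByExpr with a minimum count of 10, TMM, glmQLFit and glmQLFTest) over 16 libraries, with 1 coefficient per group and sex as covariate (11 residual degrees of freedom). Adjusted p-values are Benjamini-Hochberg over 8236 genes. SE is the log2 fold change divided by the root of F. Genes under the filter had a two-sided exact permutation test (70 relabellings, p not adjusted). Likeness used log2 CPM with a prior count of 2. DESeq2 1.42.0 was an alternative. The code was tested on simulated data. Floors cover counting error only.

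The members and gene lists were chosen with earlier results of these data known. From each list up to 4 tested genes per comparison with the smallest p could be named, FGF ligands with 10 or more counts, and for likeness the 10 (5 for receptors) highest and 3 lowest coefficients. Promoter sequences are from RefSeq (GRCm38.p6). All members but Fgfr1 had a promoter window.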

Additional observations from a re-analysis of the deposited data

Results flagged for a closer look

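In Adam17ex PBS, Fgf21 stood at 105.9 scaled CPM in replicate 2, far above the other 3 libraries at 28.3 to 30.1. Fgfr3 in the same group was 4.02 in replicate 3, below the others at 7.75 to 8.08. Fgfr4 was 2.01 in 1 Adam17ex PBS library and 0.889 in 1 Adam17ex cerulein library, each from a single UMI beside 3 libraries at 0. These were 4 of 23 groups examined for a sample far from the others. Chance marks about 1 in 20 where values are normally spread, which does not hold for such low counts. With 3 libraries at 0, as in both Fgfr4 groups, a library with any UMI is always marked.

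The cerulein effects on Fgf21 had opposite signs in the genotypes, with a difference of 4.67 on the log2 scale that was not tested. By the interaction test the cerulein effect differed between genotypes for Cth (2.48), Aldh1l2 (2.40), Sesn2 (2.38), Eif2ak3 (1.43), Rora (1.34), Psat1 (1.20), Atf4 (0.96), Acadl (-1.29) and Plin2 (-2.29), which were 9 of the 45 genes named from related and marker lists, Adam17 included. Without Adam17ex PBS replicates 1 to 3, the interactions of Cth and Aldh1l2 were still called and the other 7 were not.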

How the results depend on the processing

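The call for Klb in WT and that for Fgfr1 in WT were also made under every alternative that gave them a value. For Klb these alternatives rest on the same 83 UMIs or part of them. In the main fit it passed the filter through PBS libraries only, so they are no independent support. Klb had no value with counts thinned to 455547 UMIs or with a minimum count of 20, and DESeq2 gave Klb and Fgfr1 no adjusted p under PBS. Among all genes, calls between genotypes under PBS (112) were 331 with no filter, 406 with no sex covariate, 234 with DESeq2 and 230 with the replicate block. The block changed no call of a member. Replicate numbers did not pair the libraries: same-numbered libraries deviated with r of -0.22 to 0.24, and 6 of 16 correlated best with their own number. Without Adam17ex PBS replicates 1 to 3, these calls were 15, those for cerulein in Adam17ex 1360 (from 2493), those for the interaction 152 (from 496), the Fgf21 interaction 5.54, the Fgf21 difference under PBS -0.17, and Klb in Adam17ex -2.04. Thinned counts gave 2074 calls for cerulein in WT (from 3388), 1546 in Adam17ex, 416 for genotype under cerulein (from 799) and 262 for the interaction. With CPM by library total, Fgfr2 under PBS was -0.0388 and Fgfr3 for cerulein in Adam17ex -4.04 (exact permutation p 0.0286).

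Leaving out single libraries gave 30 to 370 calls for genotype under PBS, 402 to 913 for genotype under cerulein and 239 to 624 for the interaction. Klb ranged from -2.51 to -1.31 for cerulein in Adam17ex, from 0.65 to 2.14 for genotype under cerulein, from 0.16 to 1.91 for the interaction and from -0.014 to 0.50 under PBS. In scaled CPM, Fgfr2 under PBS ranged from -1.41 to 1.17, Fgfr3 for cerulein in Adam17ex from -5.69 to -3.997, Fgfr4 for cerulein in WT from -2.24 to -1.19 and Fgfr4 for cerulein in Adam17ex from -0.502 to 0.222. Among the named genes of related and marker lists, leaving out the 3 shallow libraries (chosen for these genes after seeing the data) lost 11 of 32 cerulein calls in Adam17ex and 7 of 9 interactions. The cause of these shifts was not tested, beyond the smaller numbers of samples or genes that the settings leave. Depth limits Fgfr2, Fgfr3 and Fgfr4, at 23, 57 and 8 UMIs.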
